A study of Macaca fuscata with 12 samples.

Results

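The proteasome genes described here are the genes whose symbol begins with PSM, a letter from A to G and a number, taken from probe sets to which the array's probe-to-gene table gives a single symbol. This rule found 33 genes with 73 probe sets, of 14132 genes with 24956 single-symbol probe sets in all. By role they were 4 genes of the alpha ring and 8 of the beta ring of the core, 5 ATPases and 2 other subunits of the base, 1 assembly chaperone of the base, 5 subunits of the lid, 2 activators, the regulator PSMF1, 4 assembly chaperones of the core, and PSMC3IP. PSMC3IP is a meiotic recombination factor that shares the name pattern and is no proteasome subunit, and it was kept in the counts because the rule includes it. A further 7 probe sets list a PSM symbol beside other symbols and were left out. PSMB9 and PSME1 are not analysed here.

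The proteasome degrades proteins tagged with ubiquitin. Its core is a barrel of alpha and beta rings, in which PSMB5, PSMB6 and PSMB7 cut the protein chain. Its cap has a base, whose ATPases unfold the substrate and push it into the barrel, and a lid that removes the ubiquitin. After interferon signals PSMB8 can replace PSMB5, and PSMB10 can replace PSMB7, which gives the immunoproteasome. In neurons the proteasome limits the lifetime of synaptic proteins, and blocking it disturbs lasting changes of synaptic strength.

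The data are 12 Affymetrix arrays, of a design for the rhesus macaque, of left-hemisphere cortex from 8 Japanese macaques, for which no strain or genotype is given in the labels. SII stands for the cortex about the lateral sulcus, with the secondary somatosensory area, and IPS for the cortex about the intraparietal sulcus. In each region 3 arrays were of control animals and 3 of animals trained to use tools, each from a different animal. The SII controls 1 to 3 were a female of 4 years 6 months, a male of 5 years 4 months and a male of 5 years 10 months. The SII trained animals 1 to 3 were a male of 5 years 7 months, a female of 3 years 10 months and a male of 5 years 1 month. The IPS controls were males of 5 years 4 months, 5 years 10 months and 3 years 9 months, and the IPS trained animals were males of 5 years 7 months, 6 years and 5 years 1 month. Both regions were sampled in 4 animals, which are SII control 2 with IPS control 1, SII control 3 with IPS control 2, and trained animals 1 and 3 of both regions. The sources used here do not state how long training lasted.

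Values are on a log2 scale, and each probe set is centred on its own median across the arrays, so that levels cannot be compared between genes. A coarse signal class was recovered from the spacing of the stored numbers. High stands for a signal of at least 256 in at least 11 arrays, middle for at least 16, low for less, and floor for a probe set that stood at the lowest value of its array in at least 2 arrays, where the value is only an upper limit. That lowest value lay at a different height on each array, from -0.71 on SII control 2 to 0.96 on SII trained 2, in log2 units relative to the mean of the 12 arrays. Of the 73 proteasome probe sets, 31 (42.5%) had a high signal, against 8.37% of all probe sets, and 28 (38.4%) a middle signal, against 39.3%. Low signals were found for 10 (13.7%), against 33.6%, and floor values for 4 (5.48%), against 18.8%. At least 1 high-signal probe set was present for 21 of the 33 genes. PSMB8, the inducible partner of PSMB5, and PSMB11, a beta subunit known from the thymus, had only low-signal probe sets. The probe sets with floor values belonged to PSMA7, PSMB2, PSME2 and PSME3. The median SD within groups was 0.25 over the proteasome genes and 0.40 over all genes, and within the high-signal probe sets it was 0.23 for both.

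Among cell type markers the astrocyte genes GFAP, SLC1A2, SLC1A3 and ALDOC and the oligodendrocyte genes MBP and CNP had high signals. So did the excitatory neuron gene TBR1, the GABA neuron gene GAD1, CD68 of microglia and macrophages, and GZMK of T cells and granulocytes. None of the 3 measured red blood cell genes was above the low class. Hybridisation controls were raised by more than 0.3 on 3 arrays, SII control 1, SII trained 2 and IPS trained 3, and array medians lay between -0.044 and 0.11. In tissue RNA, fewer cells of a type and less RNA per cell cannot be told apart.

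**Figure D1:**
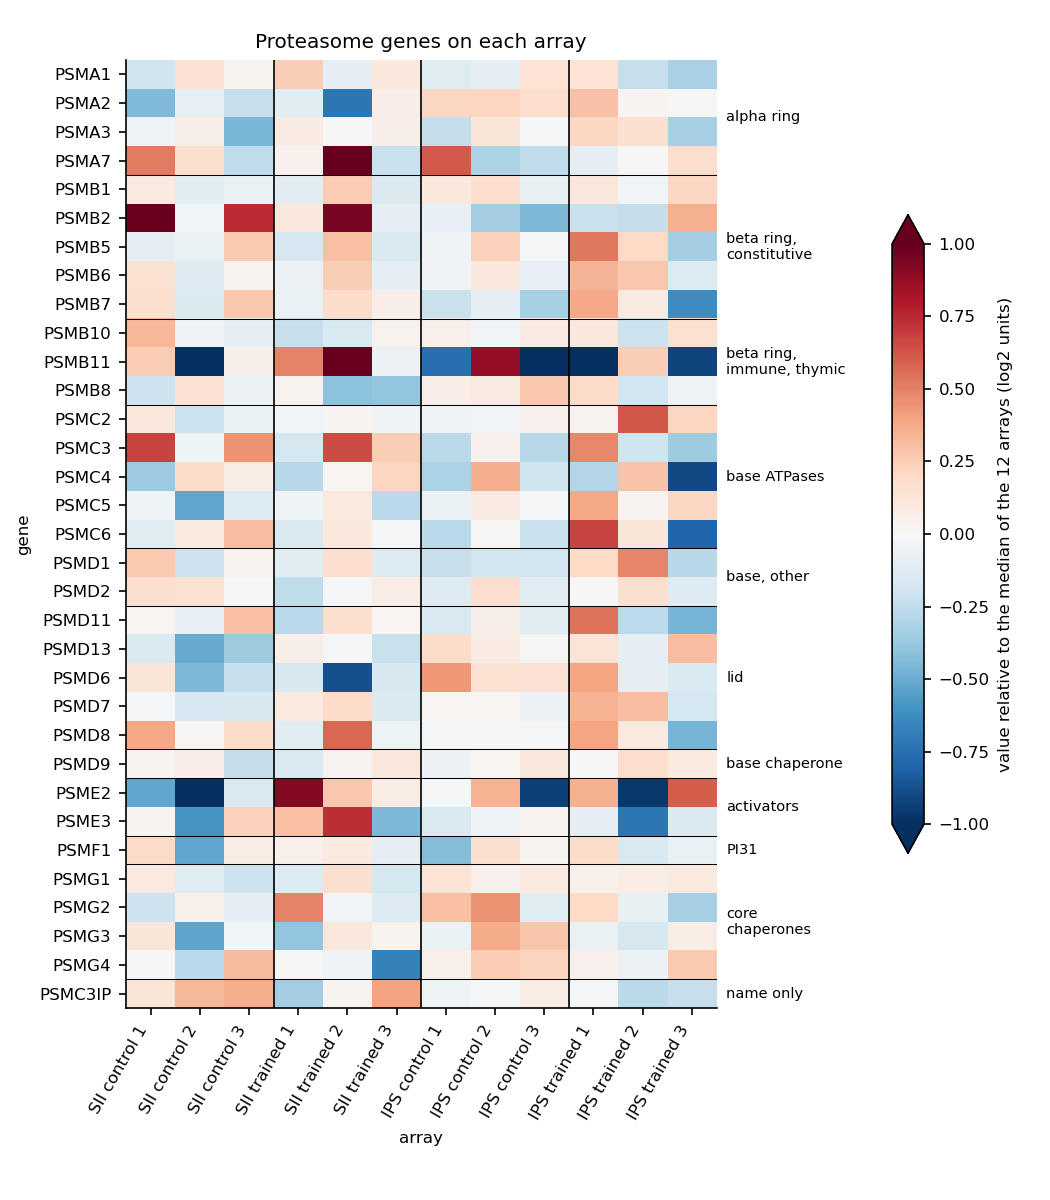
Heat map of the 33 proteasome genes (rows, ordered by role) on the 12 arrays (columns, ordered by group); colour gives the mean over a gene's probe sets as log2 relative to the median across arrays, and saturates at 1 in either direction. Values beyond 1 occur only in the rows of PSMA7, PSMB2, PSMB11 and PSME2. On IPS trained 1, 26 of the 33 genes (78.8%) are above 0, against 53.9% of all genes.

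Whether proteasome genes differed between trained and control animals was tested in each region by limma over all 14132 genes. A difference is given as trained minus control with its standard error, in log2 units, and an adjusted p is limma's after adjustment over all genes. In SII 18 of the 33 genes had an estimate above 0 and 15 below, with a median of 0.028, against 0.031 over all genes. In IPS 20 were above and 13 below, with a median of 0.032, against 0.030 over all genes. The median size of the difference, without its sign, was 0.12 in SII and 0.15 in IPS, against 0.19 and 0.18 over all genes. No proteasome gene passed an adjusted p of 0.05 in either region, nor did any other gene (0% in SII and 0% in IPS), and the adjusted p of each proteasome gene was 1.00 after rounding. At an unadjusted p under 0.05 there were 0 of 33 proteasome genes in SII, against 3.49% of all genes, and 0 of 33 in IPS, against 2.87%. Control and trained arrays did not overlap for 1 proteasome gene in SII, PSME2, against 6.55% of all genes, and for 0 in IPS, against 8.37%. Without PSMC3IP the counts were 18 above and 14 below in SII and 20 above and 12 below in IPS.

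The size of difference that these arrays could have shown varied by gene. The standard error within 1 region had a median of 0.22 over the proteasome genes (0.16 to 0.62), against 0.32 over all genes in SII. The 95% interval lay wholly within 1 log2 unit of 0 for 28 of 33 genes in SII and 30 in IPS, and wholly within 0.5 for 6 and 6, so a difference of 0.5 was inside the interval of most genes. Over the 31 high-signal probe sets the differences ran from -0.44 to 0.34 in SII and from -0.22 to 0.51 in IPS, and 0 of them had an unadjusted p under 0.05 in either region. With the high-signal probe sets of a gene averaged, 0 of 21 proteasome genes were under it in either region. Of all 2358 such genes, 1.95% were in SII and 0.933% in IPS.

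**Figure D2:**
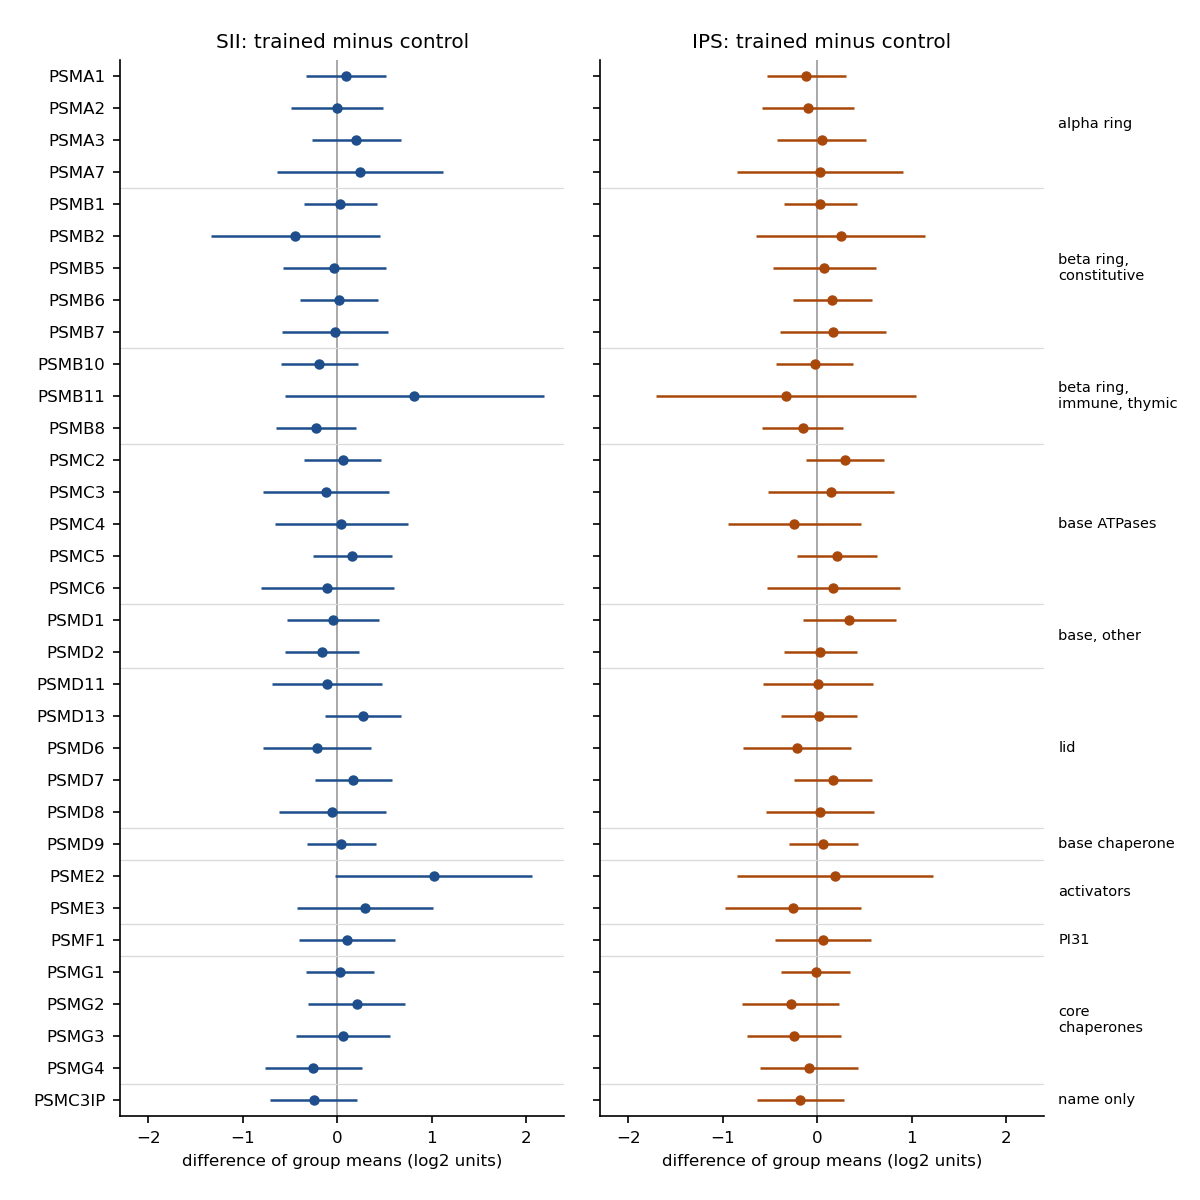
Trained minus control difference of each proteasome gene (log2 units, x axis) in SII (left) and IPS (right); points are limma estimates and lines 95% intervals, with genes grouped by role. Every interval includes 0; the widest belong to PSMB11, PSME2, PSMB2 and PSMA7, and that of PSME2 in SII runs from -0.022 to 2.06.

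The alpha ring genes, which form the gated entrance of the core, gave estimates on both sides of 0. PSMA1 differed by 0.087 ± 0.19 in SII and by -0.11 ± 0.19 in IPS, and PSMA2 by -0.0045 ± 0.22 and -0.093 ± 0.22. PSMA3 stood at -0.047, 0.058 and -0.46 in the SII controls and at 0.079, 0.0053 and 0.061 in the SII trained animals, a difference of 0.20 ± 0.21, with 1 low value in SII control 3 and overlap of the groups. In IPS it differed by 0.048 ± 0.21. PSMA7 had the widest error of this ring, 0.24 ± 0.40 in SII. One of its 3 probe sets held floor values, on SII control 3 among others, and had a fitted difference of 0.38, and the others, both of high signal, differed by 0.23 ± 0.21 and 0.10 ± 0.22.

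Among the constitutive beta subunits all 5 genes had an estimate above 0 in IPS, from 0.034 to 0.25, none past the test, and 2 of 5 did in SII. Without IPS trained 1 the IPS estimates of PSMB5 and PSMB7 were below 0, at -0.13 and -0.054. PSMB1, which has no cutting activity, differed by 0.031 ± 0.17 in SII and by 0.034 ± 0.17 in IPS. PSMB2, likewise without cutting activity, had the largest estimates of the constitutive subunits, -0.45 ± 0.40 in SII (95% interval -1.34 to 0.45) and 0.25 ± 0.40 in IPS. In SII its high-signal probe set differed by 0.028 ± 0.23 and its probe set with floor values, at the floor on SII trained 1, had a fitted difference of -1.29. With high-signal probe sets alone the SII estimate had the opposite sign, 0.036.

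PSMB5, the chymotrypsin-like catalytic subunit, stood at -0.089, -0.066 and 0.26 in the SII controls, at -0.17, 0.30 and -0.14 in the SII trained animals, at -0.036, 0.23 and -0.0094 in the IPS controls and at 0.53, 0.20 and -0.35 in the IPS trained animals. PSMB6, the caspase-like subunit, stood at 0.16, -0.13 and 0.035, at -0.056, 0.25 and -0.095, at -0.035, 0.11 and -0.079 and at 0.34, 0.27 and -0.14 in the same order of groups. PSMB7, the trypsin-like subunit, stood at 0.16, -0.14 and 0.27, at -0.069, 0.19 and 0.069, at -0.23, -0.086 and -0.33 and at 0.38, 0.092 and -0.63. In all 3 genes the control and trained arrays overlapped in both regions, and IPS trained 1 was the highest and IPS trained 3 the lowest of the IPS trained arrays. This order was not particular to these genes. Among all high-signal genes IPS trained 1 was the highest of the 3 in 52.3% and IPS trained 3 the lowest in 61.5%. Over all genes the shares were 37.8% and 37.5%. The SD of the IPS trained arrays was 0.45 for PSMB5, 0.26 for PSMB6 and 0.52 for PSMB7, against 0.15, 0.097 and 0.12 in the IPS controls. The differences were -0.035 ± 0.25, 0.017 ± 0.19 and -0.025 ± 0.25 in SII and 0.077 ± 0.25, 0.16 ± 0.19 and 0.16 ± 0.25 in IPS.

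The immunoproteasome subunits PSMB8 and PSMB10 had estimates below 0 in both regions, none past the test, and that of PSMB10 in IPS was 0.089 without IPS trained 2. PSMB8 stood at -0.21, 0.15 and -0.061 in the SII controls and at 0.034, -0.41 and -0.39 in the SII trained animals, a difference of -0.23 ± 0.19 (95% interval -0.65 to 0.20). In IPS its controls stood at 0.070, 0.094 and 0.27 and its trained animals at 0.19, -0.19 and -0.034, a difference of -0.15 ± 0.19 (95% interval -0.58 to 0.27). PSMB10 stood at 0.33, -0.034 and -0.098 in the SII controls and at -0.23, -0.15 and 0.037 in the SII trained animals, and at 0.048, -0.029 and 0.081 and 0.11, -0.21 and 0.15 in the IPS controls and trained animals. It differed by -0.19 ± 0.18 in SII and by -0.027 ± 0.18 in IPS, and the groups of both genes overlapped in each region. The thymic subunit PSMB11, with a single low-signal probe set, differed by 0.82 ± 0.62 in SII and by -0.33 ± 0.62 in IPS, and its arrays ran from -1.51 to 1.01.

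A shift from the constitutive to the inducible subunit was read as the difference between both on the same array. PSMB8 minus PSMB5 had a mean of -0.078 ± 0.27 (SD, n = 3) in the SII controls, -0.26 ± 0.46 in the SII trained animals, 0.083 ± 0.21 in the IPS controls and -0.14 ± 0.39 in the IPS trained animals. PSMB10 minus PSMB7 had means of -0.028 ± 0.29, -0.18 ± 0.15, 0.25 ± 0.18 and 0.065 ± 0.62 in the same order. Control and trained arrays overlapped in both regions for both pairs. These are shifts of centred values and give no ratio of the subunits' levels.

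**Figure D3:**
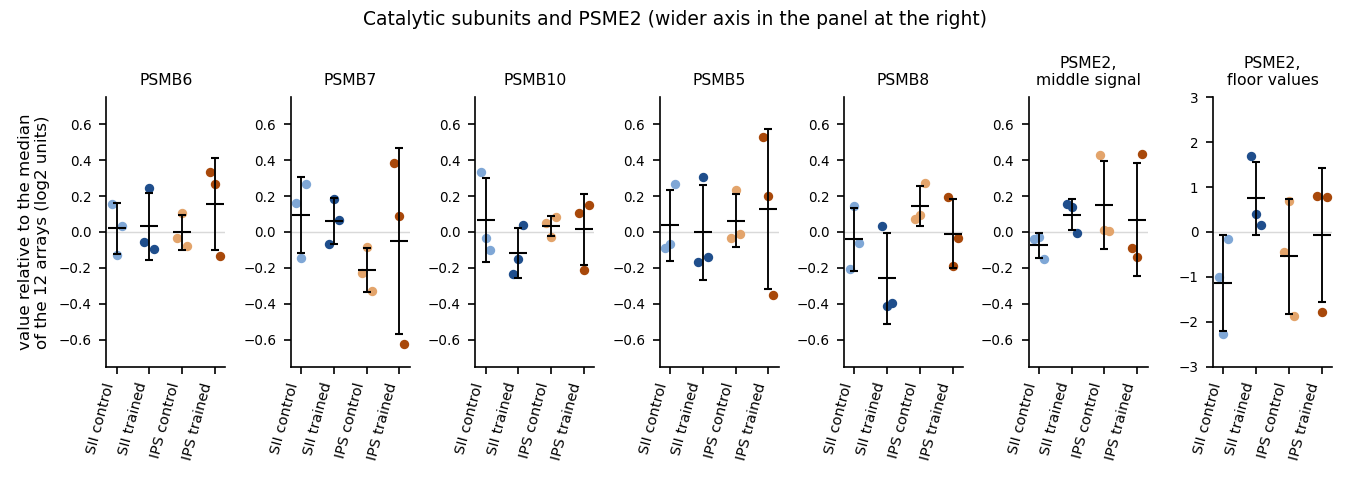
Values of PSMB6, PSMB7, PSMB10, PSMB5, PSMB8 and of both PSME2 probe sets in the 4 groups, in log2 units relative to the median across arrays; points are arrays, and bars give the mean and SD of 3 arrays. Control and trained points overlap in both regions for the catalytic subunits, and the PSME2 probe set with floor values spans -2.26 to 1.68.

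Of the base ATPases, the motor of the cap, 4 of 5 had an estimate above 0 in IPS (median 0.17) and 3 of 5 in SII (median 0.040). PSMC2 had the smallest p of all 33 genes in IPS. Its controls stood at -0.035, -0.025 and 0.041 and its trained animals at 0.037, 0.62 and 0.21, a difference of 0.29 ± 0.18 (95% interval -0.12 to 0.70), with IPS trained 1 within the range of the controls. Its middle-signal probe set differed by 0.56 ± 0.35 and its high-signal one by 0.034 ± 0.20. PSMC5, with 2 high-signal probe sets, stood at -0.069, 0.078 and -0.0082 in the IPS controls and at 0.39, 0.031 and 0.21 in the IPS trained animals, a difference of 0.21 ± 0.19 (95% interval -0.21 to 0.63), and differed by 0.16 ± 0.19 in SII. PSMC6 stood at 0.68, 0.12 and -0.79 in the IPS trained animals, with an SD of 0.74 against 0.15 in the IPS controls, and PSMC4 at -0.29, 0.29 and -0.90, with 0.59 against 0.36. PSMC3 differed by -0.12 ± 0.30 in SII and by 0.15 ± 0.30 in IPS.

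PSMD1, a large scaffold of the base, stood at -0.23, -0.19 and -0.19 in the IPS controls and at 0.20, 0.49 and -0.28 in the IPS trained animals, a difference of 0.34 ± 0.22 (95% interval -0.15 to 0.83). IPS trained 3 lay below all 3 controls and the other trained arrays above them. Without IPS trained 3 the difference was 0.53 ± 0.20 (adjusted p = 0.92). Leaving out that array brought 3 proteasome genes under an unadjusted p of 0.05 in IPS, PSMD1, PSMB7 (0.47 ± 0.20) and PSMC6 (0.61 ± 0.23), which is 9.09% of the family against 5.19% of all genes in the same fit. Of these genes, PSMC6 was named after its values had been seen. PSMD2, the other scaffold of the base, differed by -0.16 ± 0.17 in SII and by 0.033 ± 0.17 in IPS.

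The lid subunits gave estimates of either sign. PSMD13, a structural subunit, stood at -0.15, -0.50 and -0.36 in the SII controls and at 0.058, -0.0098 and -0.22 in the SII trained animals, a difference of 0.27 ± 0.18 (95% interval -0.13 to 0.67), with SII trained 3 within the range of the controls. In IPS it differed by 0.017 ± 0.18. PSMD7, which pairs with the lid's deubiquitinase, differed by 0.17 ± 0.19 in SII and by 0.17 ± 0.19 in IPS. PSMD6 differed by -0.21 ± 0.26 and -0.22 ± 0.26, PSMD8 by -0.053 ± 0.26 and 0.030 ± 0.26, and PSMD11 by -0.12 ± 0.26 and 0.013 ± 0.26. PSMD9, a chaperone that helps to assemble the base, differed by 0.040 ± 0.16 in SII and by 0.066 ± 0.16 in IPS.

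The activators bind the ends of the core in place of the cap. PSME2, a subunit of the interferon-inducible activator, had the smallest p of all 33 genes in the training comparisons. Its arrays stood at -0.52, -1.15 and -0.15 in the SII controls and at 0.92, 0.27 and 0.072 in the SII trained animals, without overlap of the groups. The difference was 1.02 ± 0.47 (95% interval -0.022 to 2.06, adjusted p = 1.00). One of its 2 probe sets, with floor values on 3 arrays, had a fitted difference of 1.88 and stood at -0.99, -2.26 and -0.15 in the controls, the first of these at the floor of its array, and at 1.68, 0.41 and 0.15 in the trained animals. The other, of middle signal, differed by 0.17 ± 0.23 (95% interval -0.34 to 0.67) and stood at -0.039, -0.026 and -0.15 in the controls and at 0.15, 0.14 and -0.0033 in the trained animals. The gene's difference was 0.75 without SII control 2, 0.78 without SII trained 1, 0.70 with a covariate for RNA quality (GAPDH, described further on) and 0.17 without floor probe sets. It came under an unadjusted p of 0.05 when any 1 of SII control 3, SII trained 3, IPS control 3, or the IPS trained animals 2 and 3 was left out, or when each region was fitted alone, always with an adjusted p above 0.05. Of the markers measured beside it, 5 of 7 markers of T cells and granulocytes were above 0 in SII. The 7 ran from -0.70 to 2.70, and 3 of them had low or floor signals. The highest was NKG7, at 2.70 ± 0.33 (limma, adjusted p = 0.101). Mean levels of the 7 were 0.072, -0.41 and -0.26 in the controls and 0.29, 1.00 and -0.38 in the trained animals. All 5 measured markers of choroid plexus and ependyma, none of high signal and none past the test, were above 0 in SII as well, from 0.19 to 1.41. Their mean level stood at -0.20, 0.16 and -0.46 in the controls and at 0.92, 0.63 and -0.12 in the trained animals. Elsewhere in SII, 3 of 3 red blood cell markers, 5 of 11 of microglia and macrophages, and 1 of 6 of endothelial cells and pericytes were above 0. So were 1 of 5 of astrocytes, 1 of 2 of oligodendrocytes, 2 of 5 each of excitatory and GABA neurons, and 1 of 5 of meninges and fibroblasts. The part of any of these cell types in the PSME2 values was not tested. In IPS PSME2 stood at -0.013, 0.35 and -0.93 in the controls and at 0.36, -0.96 and 0.60 in the trained animals, a difference of 0.19 ± 0.47 with overlap, and its middle-signal probe set differed by -0.079 ± 0.23.

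PSME3, which forms an activator of the nucleus, differed by 0.29 ± 0.32 in SII and by -0.25 ± 0.32 in IPS. Its probe set with floor values was the only one of the 73 proteasome probe sets (1.37%) under an unadjusted p of 0.05 in SII, against 3.87% of all probe sets, and in IPS there were 0 of 73, against 3.27%. That probe set stood at -0.88, -2.26 and -0.16 in the SII controls, the first and second of these at the floors of their arrays and so only upper limits, and at 0.85, 0.95 and -0.30 in the SII trained animals. The fitted difference of 1.61 therefore depends on where those floors lay and is no exact size. In SII its probe sets of middle and low signal differed by 0.12 ± 0.24 and -0.83 ± 0.71. PSMF1, also called PI31, a core-binding protein first described as an inhibitor, differed by 0.098 ± 0.23 in SII and by 0.066 ± 0.23 in IPS.

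The assembly chaperones PSMG1 to PSMG4 help to build the core's rings. In IPS all 4 had an estimate below 0, from -0.28 to -0.016, and in SII 1 of 4 did. PSMG2 stood at 0.30, 0.45 and -0.12 in the IPS controls and at 0.20, -0.072 and -0.33 in the IPS trained animals, a difference of -0.28 ± 0.23 (95% interval -0.79 to 0.23). PSMG3 stood at -0.069, 0.37 and 0.28 and at -0.067, -0.16 and 0.072, a difference of -0.25 ± 0.22 (95% interval -0.75 to 0.25). Both estimates lay in low-signal probe sets, at -0.60 and -0.57, and with high and middle signals only they had the opposite sign, 0.035 for PSMG2 and 0.076 for PSMG3. The 2 probe sets of PSMG2 carry different gene identifiers in the array's table. PSMG1, with 2 high-signal probe sets, differed by 0.028 ± 0.16 in SII and by -0.016 ± 0.16 in IPS, and PSMG4 by -0.25 ± 0.23 and -0.089 ± 0.23.

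PSMC3IP had 8 probe sets, the most of any gene matched by the rule. It differed by -0.25 ± 0.21 in SII (95% interval -0.71 to 0.21) and by -0.18 ± 0.21 in IPS (95% interval -0.64 to 0.28), and its probe sets ran from -0.88 to 0.37 in SII. Probe sets of 1 gene often differed in sign: of the 23 genes with several, all had the same sign in 8 genes in SII and in 7 in IPS.

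Whether the training difference itself differed between regions was tested as IPS minus SII, and the mean of both regions was tested as well. In each of these comparisons 0 of 33 proteasome genes passed an adjusted p of 0.05, against 0% and 0% of all genes. At an unadjusted p under 0.05 there were 0 of 33 for the difference, against 3.28% of all genes, and 0 of 33 for the average, against 3.02%. For the difference the smallest p above 0 were those of PSMD1 (0.38 ± 0.30, 95% interval -0.29 to 1.05) and PSMB2 (0.70 ± 0.55), and below 0 those of PSMG2 (-0.48 ± 0.32, 95% interval -1.19 to 0.22) and PSMB11 (-1.14 ± 0.85). For the average they were PSME2 (0.60 ± 0.34, 95% interval -0.15 to 1.36) and PSMC5 (0.18 ± 0.14) above 0, and PSMC3IP (-0.21 ± 0.15, 95% interval -0.55 to 0.12) and PSMB8 (-0.19 ± 0.14) below. Both comparisons reuse the arrays of the tests within regions.

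Within groups, the proteasome genes of high signal often lay on the same side of 0 on an array. On IPS trained 1 all 21 of 21 lay above 0, with a median of 0.33, where 76.7% of all 2358 high-signal genes did, with a median of 0.18. On IPS trained 2 it was 16 of 21 (76.2%), where 72.1% of all high-signal genes did, with a median of 0.075 against 0.11. On IPS trained 3 it was 6 of 21 (28.6%), against 37.8%, with a median of -0.18 against -0.064. The 3 IPS trained animals thus ranged from above to below the controls, whose medians were -0.024, 0.046 and -0.0095. This range was not particular to the proteasome genes. Over all high-signal genes the IPS control medians were 0.0063, 0.032 and 0.015, likewise between those of the trained arrays. In SII the trained medians were -0.070, 0.15 and -0.091 and the control medians 0.033, -0.14 and -0.0028. SII trained 2 stood highest there, with 15 of 21 genes above 0 where 47.6% of all high-signal genes were.

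Other measurements on the same arrays varied beside this. The GAPDH probe set at the 3' end minus that at the 5' end, a common sign of RNA quality, was highest on IPS trained 3 (0.89) and SII trained 1 (0.77), and stood at -0.24 on IPS trained 1 and -0.052 on SII trained 2. The same difference for actin varied more and was not used as a covariate. It was highest on IPS trained 3 (1.37) and SII trained 1 (1.17). The lowest were SII control 2 (-1.87), SII control 3 (-1.71) and SII trained 3 (-1.54). With the GAPDH difference as a covariate the median training estimate of the 33 genes was 0.15 in SII and 0.066 in IPS. In that fit 0 of 33 passed an adjusted p of 0.05 in either region. The mean level of 5 excitatory neuron markers stood at 0.22, 0.50 and -0.33 in the IPS trained animals and at -0.30, -0.19 and -0.41 in the IPS controls. All 5 of these markers had a training estimate above 0 in IPS, from 0.036 to 0.71, and none passed the test. Of the GABA neuron markers 1 of 5 was above 0 in IPS. So were 6 of 7 of T cells and granulocytes, 7 of 11 of microglia and macrophages, and 2 of 2 of oligodendrocytes. For red blood cells it was 2 of 3, for endothelial cells and pericytes 3 of 6, and for astrocytes 2 of 5. For choroid plexus and ependyma it was 2 of 5, and for meninges and fibroblasts 1 of 5. The part of any of these cell types in these values was not tested.

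**Figure D4:**
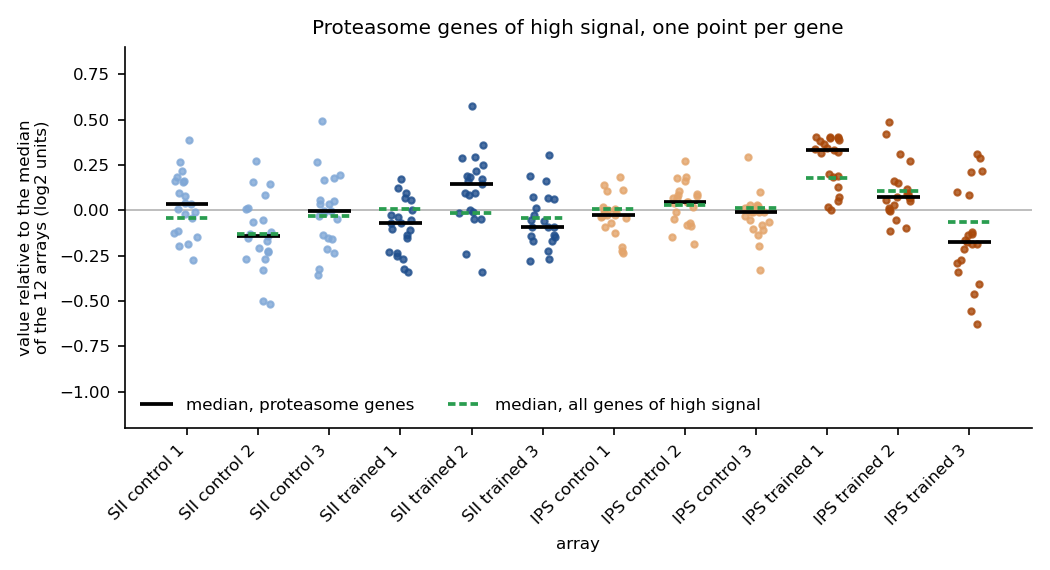
The 21 proteasome genes with a high-signal probe set on each of the 12 arrays (x axis), as the mean of their high-signal probe sets in log2 units relative to the median across arrays; points are genes, black lines their median, and dashed green lines the median of all 2358 high-signal genes. All points of IPS trained 1 lie above 0, around a median of 0.33, and the median of IPS trained 3 is -0.18.

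Averaged over training, IPS minus SII had a median of 0.032 over the 33 genes (18 above and 15 below 0), against -0.024 over all genes. No proteasome gene passed an adjusted p of 0.05, where 3 of 14132 genes did (0.0212%). At an unadjusted p under 0.05 there were 4 of 33 genes (12.1%), with PSMA2, PSMD6 and PSMD13 above 0 and PSMB2 below, against 10.7% of all genes, a share near the background. Without IPS trained 1 none of these 4 was under it and PSMC3 alone was, without SII control 3 PSMA2 alone was, without SII trained 2 PSMA2 and PSMD13 were, and without IPS control 1 PSMA2 and PSMB2 were. The SII and IPS arrays overlapped for each of the 33 genes, and 1.09% of all genes had no overlap. PSMD13 is named here after its values had been seen. Both female animals gave SII tissue only, so sex and region were partly confounded. Their arrays, SII control 1 and SII trained 2, were also among those with raised hybridisation controls. They had the highest floors as well (0.66 and 0.96). In SII, sex and these array measures could therefore not be told apart, also where male animals alone are given. The names of the arrays also differed between the regions, so region and a batch of arrays may coincide and could not then be told apart.

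PSMA2, an alpha ring subunit, stood at -0.44, -0.078 and -0.23 in the SII controls, at -0.11, -0.72 and 0.070 in the SII trained animals, at 0.20, 0.22 and 0.17 in the IPS controls and at 0.30, 0.030 and 0.013 in the IPS trained animals. All IPS values were above 0. The lowest SII values were those of the 2 females, whose arrays also had raised hybridisation controls. The difference was 0.40 ± 0.15 (95% interval 0.065 to 0.73, adjusted p = 0.415), and in male animals alone 0.25 ± 0.12, no longer under an unadjusted p of 0.05. All 5 of its probe sets were above 0, the middle-signal ones at 0.26, 0.70 and 0.63 and the high-signal ones at 0.14 and 0.29. IPS was higher in 3 of the 4 animals with both regions.

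PSMD13, of the lid, has a single probe set, of high signal. Beside the SII values given above it stood at 0.18, 0.086 and 0.0098 in the IPS controls and at 0.13, -0.096 and 0.31 in the IPS trained animals, a difference of 0.31 ± 0.12 (95% interval 0.033 to 0.58, adjusted p = 0.435). In male animals alone it was 0.36 ± 0.13 (adjusted p = 0.608). IPS was higher in all 4 animals with both regions, by 0.073 to 0.69. The same was so for proteasome genes not under an unadjusted p of 0.05, among them PSMB1, PSMB10 and PSMF1.

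For PSMD6 and PSMB2 the regional difference lay in low-signal probe sets. PSMD6, another lid subunit, stood at 0.12, -0.45 and -0.23, at -0.16, -0.88 and -0.16, at 0.43, 0.15 and 0.15 and at 0.39, -0.10 and -0.15 in the SII controls, SII trained, IPS controls and IPS trained animals, a difference of 0.44 ± 0.18 (95% interval 0.048 to 0.83). Its low-signal probe set differed by 0.78 ± 0.33 and its high-signal one by 0.098 ± 0.17. PSMB2 stood at 1.57, -0.030 and 0.75, at 0.10, 0.95 and -0.10, at -0.083, -0.34 and -0.45 and at -0.23, -0.24 and 0.36 in the same order, a difference of -0.68 ± 0.28 (95% interval -1.29 to -0.064). Its low-signal probe set differed by -1.67 ± 0.41 and its high-signal one by -0.069 ± 0.16, and in male animals alone the gene differed by -0.34 ± 0.20, likewise no longer under an unadjusted p of 0.05.

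PSMC3, a base ATPase, differed by -0.39 ± 0.21 (95% interval -0.84 to 0.069), and by -0.099 without the 3 arrays with raised hybridisation controls. Over single probe sets, 6 of 73 (8.22%) were under an unadjusted p of 0.05 for the region, against 9.26% of all probe sets, namely 2 of PSMA2 and 1 each of PSMB2, PSMC5, PSMD6 and PSMG1. All 11 microglia and macrophage markers were below 0 for the region (-0.70 to -0.042, 3 of them under an unadjusted p of 0.05), with mean levels from -0.088 to 0.26 on the SII arrays and from -0.42 to -0.034 on the IPS arrays. Also below 0 were 5 of 5 astrocyte markers, 4 of 5 of choroid plexus and ependyma, 3 of 5 of excitatory neurons and 2 of 3 of red blood cells. For oligodendrocytes it was 1 of 2, for GABA neurons 2 of 5, and for endothelial cells and pericytes 2 of 6. For T cells and granulocytes it was 2 of 7, and for meninges and fibroblasts 1 of 5. The part of any of these cell types in the proteasome values was not tested.

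**Figure D5:**
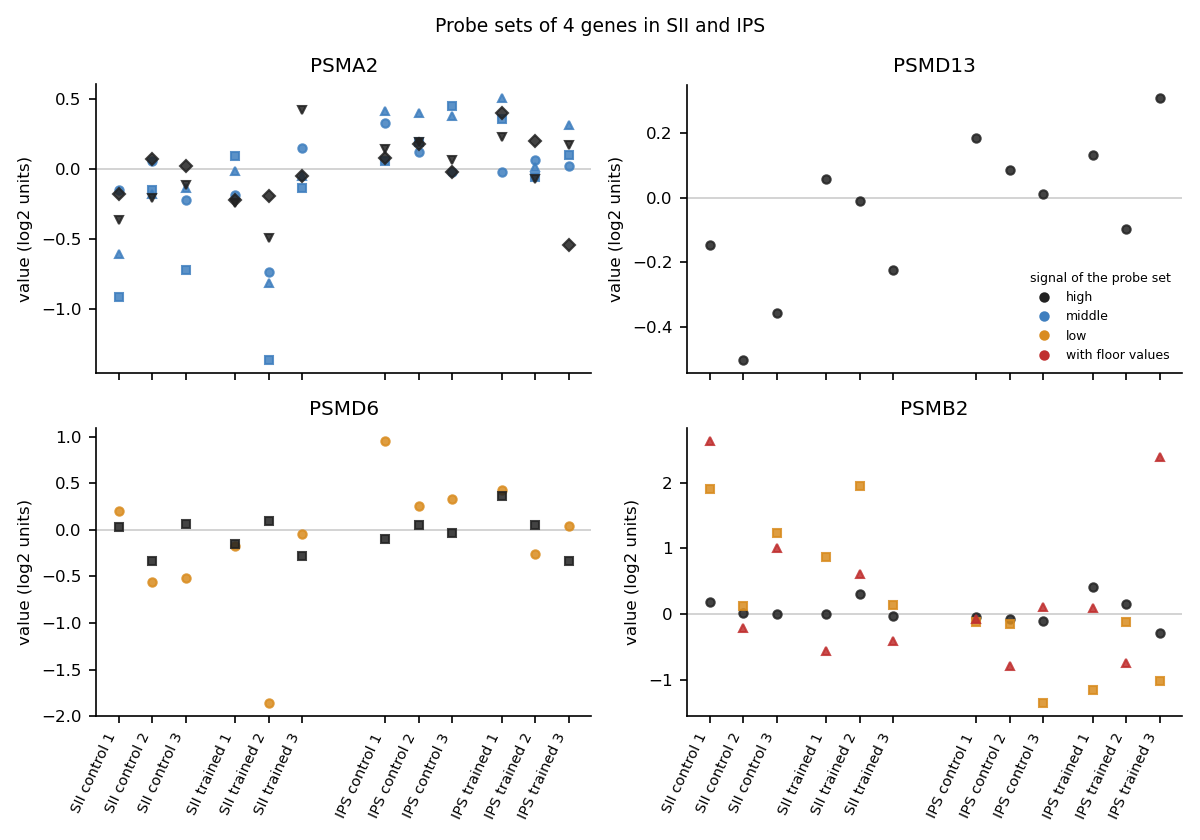
Probe sets of PSMA2, PSMD13, PSMD6 and PSMB2 on the 12 arrays (x axis, ordered by group), in log2 units relative to each probe set's median; colour gives the signal class. For PSMD6 and PSMB2 the low-signal probe sets differ between regions (0.78 and -1.67) more than the high-signal ones (0.098 and -0.069).

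Lists of genes that work with the proteasome were read beside the same background. Of 9 measured partners outside the name pattern, 0 were under an unadjusted p of 0.05 in SII or IPS. The shares over all genes were 3.49% and 2.87%. UCHL5, a deubiquitinase bound to the base, differed by -0.25 ± 0.18 in SII and by 0.24 ± 0.18 in IPS. UBE3C, a ligase bound to the proteasome, differed by 0.52 ± 0.48 in SII, and USP14, another bound deubiquitinase, by 1.59 ± 1.55 in IPS.

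Of 12 genes named as controlling proteasome genes or related to those that do, 1 was under an unadjusted p of 0.05 in SII, against 3.49% of all genes, and 0 in IPS, against 2.87%. CBFA2T3, a transcriptional corepressor, differed by -1.29 ± 0.47 in SII without overlap of the groups, and the small MAF factor MAFK by 0.64 ± 0.39. In IPS MAFF, of the same family, differed by -0.83 ± 0.44, and NFE2L1, which raises proteasome genes when the proteasome is inhibited, by -0.15 ± 0.15.

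Of 9 genes of ubiquitin activation and conjugation, 0 were under an unadjusted p of 0.05 in either region, against 3.49% and 2.87% of all genes. The conjugating enzymes UBE2K and UBE2R2 differed by -0.23 ± 0.22 and 0.10 ± 0.17 in SII, and in IPS the conjugating enzyme UBE2D3 differed by 0.30 ± 0.18 and the activating enzyme UBA6 by -0.16 ± 0.28. Of 8 genes of ubiquitin shuttles and of the segregase that extracts tagged proteins, 0 were under it in SII, against 3.49% of all genes, and 1 in IPS, against 2.87%. SQSTM1, the autophagy receptor p62, differed by 1.02 ± 0.45 in IPS and the segregase cofactor UFD1 by 0.25 ± 0.17. In SII the cofactors UBXN1 and NSFL1C differed by -0.41 ± 0.23 and -0.41 ± 0.24. Of 11 ubiquitin ligases and deubiquitinases known from neurons, 1 was under it in SII, against 3.49% of all genes, and 0 in IPS, against 2.87%. The ligase HUWE1 differed by -0.57 ± 0.25 in SII and the deubiquitinase UCHL3 by 0.46 ± 0.31, and in IPS the ligases UBE3A and STUB1 differed by 0.22 ± 0.20 and 0.19 ± 0.20.

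Of 15 genes of antigen presentation and the interferon response, the setting in which the immunoproteasome is known, 2 were under an unadjusted p of 0.05 in SII, in opposite directions, against 3.49% of all genes, and 1 in IPS, against 2.87%. The interferon-induced genes MX1 and IFIT1 differed by 0.55 ± 0.21 and -1.02 ± 0.43 in SII. In IPS CD74, the invariant chain of MHC class II, differed by 1.19 ± 0.40 and TAPBP, which loads peptides, by 0.51 ± 0.30. None of the genes in these lists passed the adjustment over all genes in SII or IPS (limma, adjusted p = 1.00 for CBFA2T3, 1.00 for HUWE1, 1.00 for MX1, 1.00 for IFIT1, 1.00 for SQSTM1 and 1.00 for CD74).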

How the data were processed

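The authors deposited log2 values for 12 arrays, centred per probe set to a median of 0; the log base was inferred from their range. The software listed per the submitters' processing notes is MAS5, and the sources used here do not say how arrays were scaled to each other. Leaving out 99 control probe sets, 52766 were tested, and the single-symbol probe sets of a gene were averaged.

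Genes were fitted by group in limma (version 3.58.1, with statmod 1.5.0 under R 4.3.3), with arrays of the same animal as a random block (correlation 0.0862), empirical Bayes moderation (8 residual and 2.5 prior degrees of freedom), 2-sided tests and Benjamini-Hochberg adjustment over 14132 genes. Because of the block, an estimate can depart slightly from the difference of group means. The fit was tested on simulated data. The simulated arrays were drawn independently, without animal effects or floor values, and held changes of 1 log2 unit or more. That test therefore does not cover the animal block or smaller changes. With 3 arrays against 3, an exact permutation test of 1 gene cannot go below p = 0.1, and the number of arrays limits the precision.

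Named genes were the 3 with the smallest p in each direction in SII and in IPS, the 2 in each direction for the other comparisons, the exchangeable catalytic subunits and PSME2, and the 2 with the smallest p of each partner list; the others are given by role. Members, lists and alternatives were chosen with earlier results of these data known. Alternatives changed the normalization, weights, covariates, animal or replicate block, probe sets kept, and arrays left out. Sequences were not used here.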

Additional observations from a re-analysis of the deposited data

How the results depend on the processing

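No proteasome gene passed an adjusted p of 0.05 in any of the 5 comparisons under any alternative run, including high-signal probe sets only, which was chosen after seeing the data. The median training difference in SII (0.028) was 0.15 with the GAPDH 3' minus 5' difference as a covariate and -0.054 after quantile normalization. Leaving out 1 array gave medians of -0.076 to 0.073 in SII, -0.054 to 0.067 in IPS, -0.094 to 0.068 for the difference between regions (lowest without IPS trained 1), -0.048 to 0.074 for the average and -0.024 to 0.087 for the region. Of the estimates of named genes, those that changed sign were, first, those of PSMB2 in SII (0.031 with high or middle and 0.036 with high signals), PSMG2 in IPS (0.035 with high or middle signals), PSMG3 in IPS (0.076 with high or middle and 0.078 with high signals), and, for the difference between regions, PSMG2 (0.10 with high or middle signals) and PSMB2 (-0.023 without floor probe sets and -0.018 without _x_at and _s_at probe sets). The others that changed sign ranged over the alternatives from -0.26 to 0.23 for PSMB5, -0.091 to 0.15 for PSMB6 and -0.15 to 0.27 for PSMB7 in SII, and from -0.13 to 0.35 for PSMB5, -0.054 to 0.47 for PSMB7, -0.090 to 0.089 for PSMB10 and -0.18 to 0.67 for PSME2 in IPS. Under an unadjusted p of 0.05 there were 0 to 2 proteasome genes in SII, 0 to 3 in IPS and 1 to 7 for the region. The 2 in SII came without SII trained 3 (6.06%, against 5.77% of all genes in the same fit). The 3 in IPS came without IPS trained 3 (9.09%, against 5.19%) or without the 3 arrays with raised hybridisation controls (9.09%, against 7.05%). The 7 for the region came without those 3 arrays as well (21.2%, against 10.3%). The 1 for the region came without SII control 3 (3.03%, against 9.38%) or without IPS trained 1 (3.03%, against 8.56%). With high signals only it was 4 of 21 for the region (19.0%, against 28.7%). With high or middle signals it was 4 of 31 (12.9%, against 15.7%). For the region, genes past an adjusted p of 0.05 went from 3 of 14132 to 152 of 2358 with high signals only and to between 0 and 9 when 1 array was left out (9 without SII trained 3, 7 without IPS trained 3, and 0 without SII control 2, SII control 3, SII trained 2, IPS control 2 or IPS control 3). The causes of these shifts were not tested.

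Same-numbered arrays of different groups did not deviate together (correlations from -0.20 to 0.061). Arrays known to come from the same animal correlated as weakly (from -0.091 to 0.056), and some of these pairs were among the same-numbered ones. The correlations therefore cannot decide whether the numbers pair controls with trained animals. With the replicate block the median differences were 0.019 in SII, 0.023 in IPS and 0.034 for the region, and 0 proteasome genes passed an adjusted p of 0.05 in each.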
